A study of Mus musculus with 6 samples.

Results

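Genes that mark B cells and plasma cells were followed in liver RNA of old mice with and without Itpr2, an inositol trisphosphate receptor and calcium channel of the endoplasmic reticulum. The 8 members are Jchain, Mzb1, Derl3 and Tnfrsf17 for plasma cells, Cd79a, Cd79b and Ms4a1 for B cells, and Pou2af1, which both stages use. They were chosen by name, with earlier results of these data known, and each had 1 probe on the array, out of 21367 genes with a symbol. In the mouse reference Jchain lies on chromosome 5, Mzb1 on 18, Derl3 on 10, Tnfrsf17 on 16, Pou2af1 on 9, Cd79a on 7, Cd79b on 11 and Ms4a1 on 19. The arrays held 3 Itpr2 knockout mice (KO 1, KO 2 and KO 3) and 3 wild-type mice (WT 1, WT 2 and WT 3). All 6 were independent untreated C57Bl/6 animals of a survival cohort, housed free of specific pathogens and killed at 23 months of age. The sources used here do not give which stretch of Itpr2 was deleted or in which cells, nor the animals' sex. Whole frozen liver was ground for RNA, so cells of every kind in the organ were measured together. In such bulk samples fewer cells of a type and less RNA per cell cannot be told apart.

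A level here is the log2 signal of a probe minus the log2 of the 75th percentile of its array, so a level of 0 lies at that percentile and 1 unit is a doubling. A change is the mean of the knockout mice minus the mean of the wild-type mice. Between 58.7% and 60.6% of the spots were well above background on each array. The 75th percentile of the spot signals was lowest on KO 3, at 278, against 359 to 394 on the other arrays. KO 1, WT 1 and WT 2 shared slide 1 of the arrays, and KO 2, KO 3 and WT 3 shared slide 2. All 10 hepatocyte markers were well above background on every array. Itpr2 itself had levels of 2.54, 2.38 and 2.20 in the knockout mice against 3.04, 3.07 and 3.08 in the wild-type mice, through 1 probe whose place relative to the deletion the sources do not give. All 10 striated muscle markers were well above background on KO 3 and WT 1, against 3 of 10 on each other array.

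B cells carry an antigen receptor built from an immunoglobulin and a signalling pair of proteins, and after activation some become plasma cells, which fill with endoplasmic reticulum and secrete antibody. On that path B cell surface genes are turned down and genes for antibody assembly and for the folding of secreted proteins are turned up. Engaged B cell receptors activate phospholipase C gamma, and the inositol trisphosphate it makes opens calcium channels of the Itpr family. A healthy liver holds few B cells and plasma cells, in the sinusoids and around the portal tracts, and the liver clears dimeric immunoglobulin A into bile.

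None of the members differed between genotypes beyond the spread between mice. In the limma fit across 17991 genes 0 of the 7 members that entered it passed an adjusted p of 0.05, where 0.00556% of all genes did. At an unadjusted p under 0.05 the count was again 0 of 7, against 6.13% of all genes. The levels of the knockout and wild-type mice overlapped for each of the 7, while 12.0% of all genes had no overlap. Tnfrsf17 was the member left out of the fit, since it was well above background on KO 3 alone. What set the members apart from most genes was how far the mice of one genotype lay from each other. The median SD between mice of a genotype (residual SD of the fit, log2) was 1.17 over the 7 members and 0.23 over all genes. The members were listed with earlier results of these data known, so this spread is a description and was not tested.

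The mice fell in a similar order from member to member. KO 3 had the highest level for 7 of 7 fitted members, as it did for 27.2% of all genes, and WT 3 the lowest for 6 of 7, as for 12.1% of all genes. Both held for 6 of 7 members and for 4.17% of all genes. The other 4 mice lay between these, and there KO 1 and KO 2 were both below WT 1 and WT 2 for 6 of 7 members, against 16.9% of all genes. Derl3 was the exception in each count of 6. The members share their arrays, may share their cells and were listed with earlier results known, so these counts are not independent observations.

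**Figure D1:**
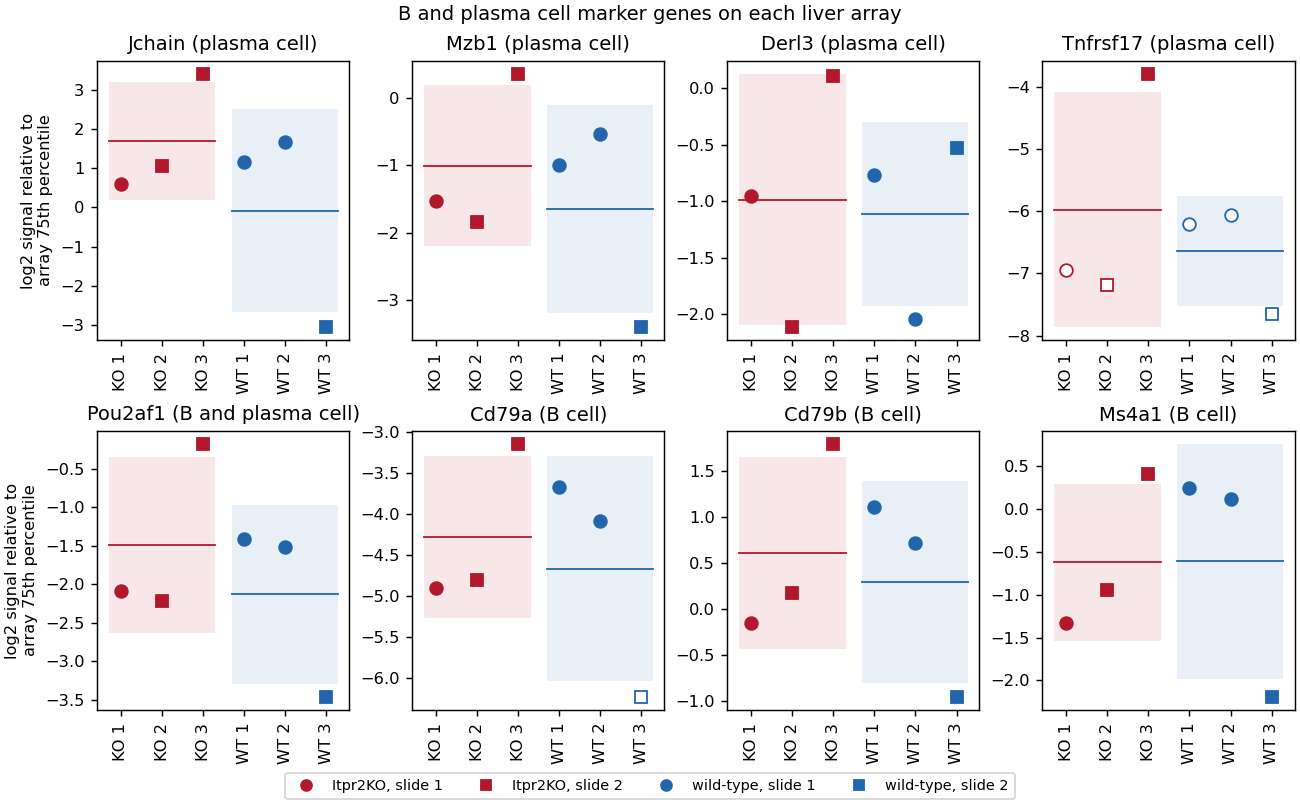
Level of each member (log2 signal relative to the 75th percentile of the array) in each of the 6 mice, with the knockout mice left of the wild-type mice, horizontal lines for group means, shading for 1 SD either side (n = 3), open symbols for values not well above background, circles for slide 1 and squares for slide 2. Each panel has its own scale. KO 3 is the highest mouse for each of the 8 genes, and WT 3 is the lowest for 6 of the 7 fitted genes, all but Derl3.

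Jchain encodes the joining chain that links immunoglobulin A into dimers and immunoglobulin M into pentamers. Its levels were 0.61, 1.06 and 3.41 in KO 1, KO 2 and KO 3, against 1.16, 1.66 and -3.07 in WT 1, WT 2 and WT 3. The wild-type mice alone spanned more than the knockout mice, because WT 3 lay far below the others. KO 3 was 5.97-fold above the mean of KO 1 and KO 2, the mean of WT 1 and WT 2 was 22.3-fold above WT 3, and highest to lowest over the 6 mice was 89.1-fold. Jchain averaged 1.69 ± 1.51 in the knockout mice and -0.081 ± 2.60 in the wild-type mice (SD, n = 3 each). Its change of 1.77 (95% interval -1.51 to 5.06) had a limma adjusted p of 0.839, and exact permutation of the 6 mice (two-sided) gave p = 0.6. With 3 mice against 3 that exact test cannot give less than 0.1. Leaving out WT 3 brought the Jchain change to 0.28, and leaving out KO 3 brought it to 0.91. Its residual SD of 2.12 was reached or exceeded by 0.40% of all genes.

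Mzb1 encodes a chaperone of the endoplasmic reticulum that helps assemble and secrete immunoglobulin M. Its levels were -1.53, -1.84 and 0.36 in KO 1, KO 2 and KO 3, against -1.00, -0.53 and -3.41 in WT 1, WT 2 and WT 3. The mice fell in nearly the order seen for Jchain, with KO 1 and KO 2 exchanged. KO 3 lay 4.12-fold above the mean of KO 1 and KO 2, and WT 1 and WT 2 averaged 6.25-fold above WT 3. The Mzb1 change was 0.64 (95% interval -1.51 to 2.78, limma adjusted p = 0.903, exact permutation p = 0.6). It was -0.24 without WT 3 and -0.042 without KO 3, so its sign rested on those mice.

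The Mzb1 probe was printed at 10 places on each array, which gives a measure of error within an array. After outlier spots were left out 9 or 10 spots remained per array. Their SD (log2) was 0.060, 0.089 and 0.080 on KO 1, KO 2 and KO 3, against 0.093, 0.031 and 0.18 on WT 1, WT 2 and WT 3. The residual SD between mice was 1.38 for this gene, larger than the spread of the spots on any array. Spots of the highest and lowest arrays did not meet, with 0.18 as the lowest spot on KO 3 and -3.16 as the highest on WT 3. Repeat spots cover the reading of 1 labelled sample, and not the dissection, RNA extraction or labelling that came before.

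**Figure D2:**
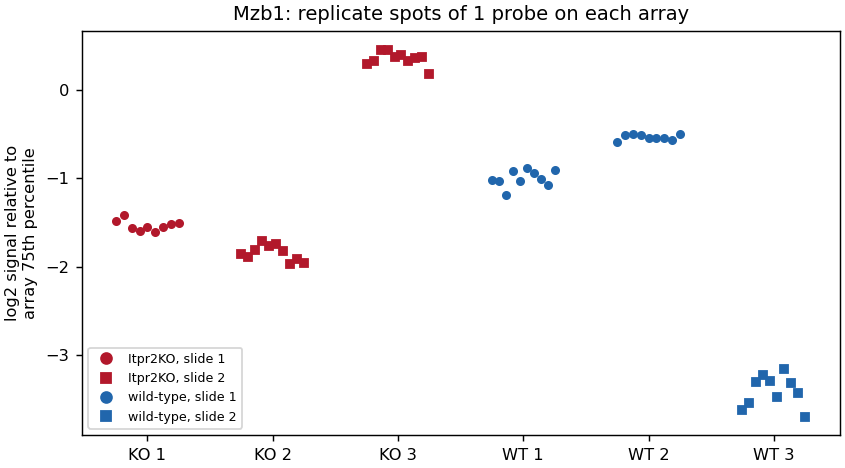
Level of each repeat spot of the Mzb1 probe (log2 signal relative to the 75th percentile of the array) by mouse, knockout mice first. The spots of an array lie close together, with SDs of 0.031 to 0.18, while the highest and lowest array means are 0.36 on KO 3 and -3.41 on WT 3.

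Derl3 encodes a membrane protein of the pathway that removes misfolded proteins from the endoplasmic reticulum, abundant in secretory cells. It had levels of -0.95, -2.12 and 0.11 in KO 1, KO 2 and KO 3, against -0.77, -2.04 and -0.53 in WT 1, WT 2 and WT 3. KO 3 was highest here too, by 3.13-fold over the mean of KO 1 and KO 2. WT 3 was not low, lying 0.88 above the mean of WT 1 and WT 2 on the log2 scale, and the lowest mice were KO 2 and WT 2. For Derl3 the change was 0.13 (95% interval -1.40 to 1.66, limma adjusted p = 0.980, exact permutation p = 1), with a residual SD of 0.97.

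The promoters of Jchain, Derl3 and Cd79a are shown because these genes had the widest spread, the deviating order and the antigen receptor pattern among the members. Each covers the bases just before and after the annotated start, 5′ to 3′ on the gene's strand, from RefSeq on GRCm38.p6, whose table held 5 of the 8 members. Jchain is at chr5:88527848-88528147 on the minus strand, Derl3 at chr10:75893148-75893447 on the plus strand and Cd79a at chr7:24897247-24897546 on the plus strand. Capitals mark CCAAT, the CCAAT box, and CCACG, the core of the elements bound by XBP1 and ATF6 in the unfolded protein response, on either strand.
Jchain: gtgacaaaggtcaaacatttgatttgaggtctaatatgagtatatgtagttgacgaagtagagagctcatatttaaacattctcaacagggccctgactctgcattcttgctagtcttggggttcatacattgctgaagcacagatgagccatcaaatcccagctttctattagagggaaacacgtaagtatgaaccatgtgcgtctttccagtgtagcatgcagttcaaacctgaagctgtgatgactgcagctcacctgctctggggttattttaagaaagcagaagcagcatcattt
Derl3: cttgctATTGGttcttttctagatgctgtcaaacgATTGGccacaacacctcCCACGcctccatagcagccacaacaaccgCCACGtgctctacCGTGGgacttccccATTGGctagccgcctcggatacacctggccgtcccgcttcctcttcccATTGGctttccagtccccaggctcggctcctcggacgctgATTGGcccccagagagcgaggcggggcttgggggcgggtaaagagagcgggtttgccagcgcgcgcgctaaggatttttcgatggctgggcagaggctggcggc
Cd79a: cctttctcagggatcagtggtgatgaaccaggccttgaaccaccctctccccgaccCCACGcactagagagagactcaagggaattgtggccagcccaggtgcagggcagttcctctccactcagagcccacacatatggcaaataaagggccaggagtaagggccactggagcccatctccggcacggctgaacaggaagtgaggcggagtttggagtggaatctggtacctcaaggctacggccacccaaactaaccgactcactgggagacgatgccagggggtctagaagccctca
The Derl3 window held 5 copies of CCAAT and 3 of CCACG. At least 5 CCAAT are found in 0.271% of 32851 promoter windows, at least 3 CCACG in 3.05%, and both together in 4 windows, or 0.0122%. These limits of 5 and 3 are the counts of Derl3 itself, so the shares describe its window and test nothing. Jchain had neither motif, Cd79a had 1 CCACG, Pou2af1 had 2 CCAAT and 3 CCACG, and Tnfrsf17 had neither. One copy or more was present in 37.4% of all windows for CCAAT and in 32.8% for CCACG. The octamer ATGCAAAT, which POU2AF1 binds together with OCT1 or OCT2, was in none of these 5 windows and in 1.74% of all. The palindrome CCCNNGGG of EBF1, a B cell factor, was also in none of them and in 13.7% of all. A match is a description of letters and shows no binding. Only exact matches were sought, so the lack of one does not show that a site is absent.

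Tnfrsf17 encodes the receptor BCMA, through which plasma cells receive survival signals. Its measured levels were -6.94, -7.19 and -3.79 in KO 1, KO 2 and KO 3, against -6.21, -6.06 and -7.66 in WT 1, WT 2 and WT 3. The signal was well above background on 1 of 3 knockout arrays, KO 3, and on 0 of 3 wild-type arrays, so the order of the other 5 mice has no meaning. On KO 3 it lay 1.68 log2 units above the lowest signal called well above background on that array. No fold is given, because the knockout mean of -5.98 was under the mean limit of -5.72 that background set in the wild-type mice, whose measured mean was -6.64.

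Pou2af1 encodes the coactivator OCA-B, which B cells and plasma cells both need for immunoglobulin gene expression. Its levels were -2.09, -2.22 and -0.18 in KO 1, KO 2 and KO 3, against -1.42, -1.52 and -3.47 in WT 1, WT 2 and WT 3. As for Mzb1, the mice at the ends were KO 3 and WT 3, with KO 3 on average 3.94-fold above KO 1 and KO 2 and WT 1 and WT 2 on average 4.01-fold above WT 3. A change of 0.64 (95% interval -1.16 to 2.44) gave a limma adjusted p of 0.885 and an exact permutation p of 0.6. Without WT 3 the Pou2af1 change was -0.027.

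Cd79a and Cd79b encode the signalling pair of the B cell receptor. Levels of Cd79a were -4.91, -4.80 and -3.15 in KO 1, KO 2 and KO 3, against -3.68, -4.09 and -6.23 in WT 1, WT 2 and WT 3. On WT 3 this gene was not well above background, so its level there is known only as an upper bound. Cd79b was well above background on every array, with levels of -0.16, 0.18 and 1.80 in KO 1, KO 2 and KO 3, against 1.11, 0.72 and -0.96 in WT 1, WT 2 and WT 3. Both put KO 3 highest and WT 3 lowest, and both put KO 1 and KO 2 below WT 1 and WT 2. The changes were 0.38 (95% interval -1.48 to 2.25) for Cd79a and 0.32 (95% interval -1.36 to 1.99) for Cd79b, with limma adjusted p of 0.940 and 0.943 and an exact permutation p of 0.8 for each. The Cd79a values take the WT 3 signal as measured. With that signal at the background limit of the array, -5.63, a setting added after the data were seen, the change was 0.18 ± 0.65 (SE, limma adjusted p = 0.970). Without WT 3 the changes were -0.40 for Cd79a and -0.31 for Cd79b.

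Ms4a1 encodes CD20, a surface protein that B cells carry and plasma cells have largely lost. It had levels of -1.33, -0.95 and 0.41 in KO 1, KO 2 and KO 3, against 0.25, 0.11 and -2.20 in WT 1, WT 2 and WT 3. KO 3 was nearest to WT 1 and WT 2, and KO 1 and KO 2 lay between those and WT 3. Group means were almost level at -0.62 ± 0.91 in the knockout mice and -0.61 ± 1.37 in the wild-type mice (SD, n = 3 each). The Ms4a1 change of -0.011 had a 95% interval of -1.83 to 1.81 (limma adjusted p = 0.999, exact permutation p = 1), which still holds changes of over 3-fold in either direction.

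Jchain and Mzb1 moved with the B cell members between mice, and Derl3 did so on KO 3 but not on WT 3. KO 3 minus the mean of KO 1 and KO 2 had a median of 2.04 log2 units over the 3 fitted plasma cell members and 1.71 over the 3 B cell members, beside 0.017 over all genes. WT 3 minus the mean of WT 1 and WT 2 had a median of -2.64 over the plasma cell members and -2.35 over the B cell members, beside 0.0090 over all genes. These medians of the 2 kinds were close to each other. Over Jchain and Mzb1 alone, a pair set apart from Derl3 after their values were seen, the medians were 2.31 and -3.56. Highest over lowest mouse was 89.1-fold for Jchain, 13.6-fold for Mzb1 and 4.68-fold for Derl3, against at least 5.57-fold for Cd79a, 6.76-fold for Cd79b and 6.09-fold for Ms4a1. The plasma cell members thus held both the widest range of the 7 and one below each B cell value given.

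With each gene centred on its mean, the mean of the 3 fitted plasma cell members minus the mean of the B cell members was 0.48, -0.13 and 0.58 in KO 1, KO 2 and KO 3. In WT 1, WT 2 and WT 3 that difference was -0.45, -0.24 and -0.23. The genotypes did not overlap in it, which was not tested. The 12.0% without overlap holds for single genes and is no reference rate for a difference of means. With Jchain and Mzb1 alone it was 0.38, 0.18 and 0.91 in the knockout mice, against -0.43, 0.36 and -1.39 in the wild-type mice, and the genotypes overlapped at KO 2 and WT 2. The median change was 0.64 over the 3 fitted plasma cell members and 0.32 over the 3 B cell members, beside 0.022 over all genes, and no member of either kind passed the test.

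The sign of the difference between genotypes was not the same on the 2 slides. On slide 1, where KO 1 was the single knockout mouse, the median difference was -0.77 for plasma cell members and -1.07 for B cell members, beside -0.017 for all genes. On slide 2, where WT 3 was the single wild-type mouse, it was 2.66 and 1.95, beside 0.031 for all genes. Jchain had -0.80 on slide 1 and 5.30 on slide 2, and Ms4a1 had -1.51 and 1.93. Lower in the knockout on slide 1 and higher on slide 2 held for 6 of 7 members and for 27.7% of all genes. Derl3 ran the other way, with 0.45 and -0.47. Fitted with the slide as a block, the changes were 2.25 for Jchain, 0.95 for Mzb1, -0.0085 for Derl3, 0.82 for Pou2af1, 0.62 for Cd79a, 0.44 for Cd79b and 0.21 for Ms4a1.

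A test of whether the genotype difference itself differed between slides was added after these values were seen, and it rests on 2 single mice, KO 1 on slide 1 and WT 3 on slide 2, with 2 residual degrees of freedom. Its estimate was 6.10 ± 1.44 (SE) for Jchain and 3.44 ± 0.85 for Ms4a1, and each had a limma adjusted p of 0.925. In all 0 of 7 members passed the adjusted threshold, as did 0 of 17881 genes (0.00%). At an unadjusted p under 0.05 there were 4 of 7 members, Jchain, Ms4a1, Cd79a and Cd79b, and 934 genes, or 5.22%. The pattern prompted the test, so these counts restate it. The slide 2 value of every member takes in WT 3, so slide and single mouse cannot be told apart.

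**Figure D3:**
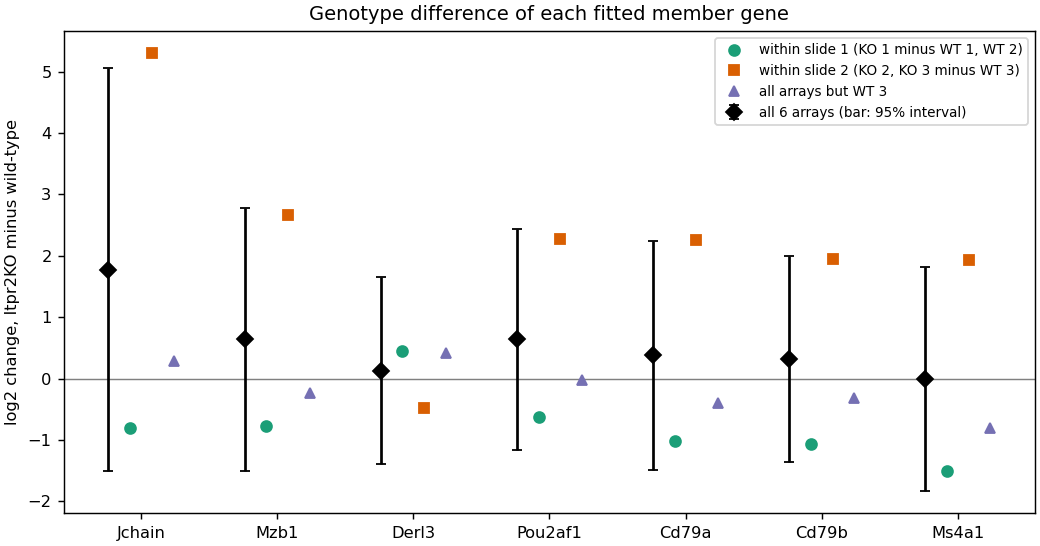
Change of each fitted member (knockout minus wild type, log2) over all 6 mice with its 95% interval, beside the differences within slide 1 and within slide 2 and the change without WT 3. Every interval spans 0, and 6 of 7 members lie below 0 on slide 1 and above 0 on slide 2, with Derl3 reversed.

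Beyond the members, 27 of 32 other B cell genes were measured. Of these 16 were higher and 11 lower in the knockout mice, with a median change of 0.056. The adjusted threshold was passed by 0, and 1 had an unadjusted p under 0.05. Of all genes 54.0% were higher in the knockout mice and 6.13% had such a p, shares to set beside each list that follows. The order of the members was seen in part of the list, with 15 of 27 highest on KO 3 and 8 of 27 lowest on WT 3. The shares over all genes were 27.2% and 12.1%. Ebf1, a transcription factor of early B cells, was well above background on 3 of 3 knockout arrays and only 1 of 3 wild-type arrays. Its measured change of 0.98 ± 0.46 (SE, limma adjusted p = 0.811) was 0.63 ± 0.29 (adjusted p = 0.812) with dim signals at the background limit. Those 8 took in Fcrla, Spib, Fcmr, Ccr6 and Ralgps2, all well above background on the 6 arrays, of which all but Ralgps2 are named here after their values were seen. They also took in Ebf1 and Fcer2a, each dim on all but 1 of the wild-type arrays, so the place of WT 3 has no firm meaning there. Other B cell genes of the list, also named after their values were seen, went the other way. Cd72 was highest on WT 3, at 0.78, and Vpreb3 was lowest on KO 3, at -3.35. Cd22 stood 0.21 higher on WT 3 than the mean of WT 1 and WT 2. Ralgps2 and the activation marker Cd83 had changes of 0.36 ± 0.15 and -0.51 ± 0.30 (SE), and the complement receptor Cr2 one of 0.32 ± 0.44, none past the threshold. Pax5, which fixes B cell identity, was well above background on 0 of 6 arrays.

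Other genes of plasma cells and of secretion, many made by hepatocytes too, were highest on KO 3 or lowest on WT 3 about as often as all genes. Of 21 listed 19 were measured, 6 higher and 13 lower in the knockout mice, with 0 past the threshold, 1 at an unadjusted p under 0.05 and a median of -0.13. On KO 3 6 of the 19 were highest, beside 27.2% of all genes. On WT 3 2 of the 19 were lowest, beside 12.1% of all genes. Irf4 had levels of -4.38, -4.50 and -2.47 in KO 1, KO 2 and KO 3, against -3.33, -3.49 and -4.22 in WT 1, WT 2 and WT 3. It was highest on KO 3 and low on WT 3, though KO 1 and KO 2 were lower still. Prdm1 was highest on KO 3 too, at -2.28, as were Sdc1, Tnfrsf13b, Slamf7 and the muscle gene Cacna1s, of which the last 3 are named after their values were seen. The transcription factors Prdm1, Irf4 and Xbp1 had changes of -0.13 ± 0.31, -0.10 ± 0.57 and 0.23 ± 0.22 (SE), and the surface proteoglycan Sdc1 one of -0.0072 ± 0.12. Creld2, a folding factor, had a change of -1.14 ± 0.43 (limma adjusted p = 0.811), and the thioredoxin-like Txndc5 and Txndc11 had -0.26 ± 0.15 and -0.46 ± 0.23. No symbol of an immunoglobulin chain segment was found among the named probes, so antibody transcripts were not used here.

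The signalling route from the B cell receptor to calcium release had all 26 listed genes measured, most of which work in other liver cells as well. In the knockout mice 6 were higher and 20 lower, 0 passed the adjusted threshold, 1 had an unadjusted p under 0.05 and the median change was -0.18. That 1 gene was Itpr2, with a change of -0.69 ± 0.13 (SE, limma adjusted p = 0.811). The kinase Pik3cd and the adaptor Bcl10 had changes of -0.52 ± 0.24 and 0.23 ± 0.11. The list barely moved with the members, and its centred mean was -0.056, -0.26 and 0.079 in KO 1, KO 2 and KO 3, against 0.088, 0.037 and 0.12 in WT 1, WT 2 and WT 3.

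Factors for B cell survival and homing were measured in 8 of 16 cases, 1 higher and 7 lower in the knockout mice, with 0 past the threshold and a median of -0.24. Tnfsf13b, the survival cytokine BAFF, had a change of -0.43 ± 0.51 (SE) and was well above background on 2 of 3 knockout arrays. Cxcl13, which draws B cells into follicles, had a change of -1.39 ± 1.07, and the costimulatory receptor Cd40, with an unadjusted p under 0.05, one of -0.86 ± 0.30 (limma adjusted p = 0.839 and 0.811). Tnfsf13 had no probe under that symbol.

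Markers of other cells moved with some of the same mice. The 14 measured of 16 T and NK cell markers had centred means of -0.87, -0.66 and 0.76 in KO 1, KO 2 and KO 3, against -0.0023, 0.35 and 0.42 in WT 1, WT 2 and WT 3. They were thus high on KO 3 as the members were, with 7 of 14 highest there, but not low on WT 3, where 0 of 14 were lowest. Of all genes 27.2% were highest on KO 3 and 12.1% lowest on WT 3. The 3 striated muscle markers in the fit averaged 3.73 on KO 3 and 3.75 on WT 1, against -2.02 to -1.74 on the other arrays. WT 1, which shared the muscle transcripts with KO 3, lay below KO 3 for each of the 7 fitted members. Second highest was WT 1 for Pou2af1, Cd79a, Cd79b and Ms4a1, WT 2 for Jchain and Mzb1, and WT 3 for Derl3. Without KO 3 and WT 1 the changes were 1.54 for Jchain, 0.28 for Mzb1, -0.25 for Derl3 and 0.34 for Pou2af1. They were 0.31 for Cd79a, 0.13 for Cd79b and -0.097 for Ms4a1, in a setting added after the data were seen. The part of these cells and tissues in the members' spread was not tested. Of the 10 hepatocyte markers 7 were highest on KO 3, beside 27.2% of all genes. Their centred mean spanned 0.61, from 0.33 on KO 3 to -0.28 on WT 2. The 3 B cell members spanned 2.82, though a mean of 3 genes can range wider than a mean of 10.

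**Figure D4:**
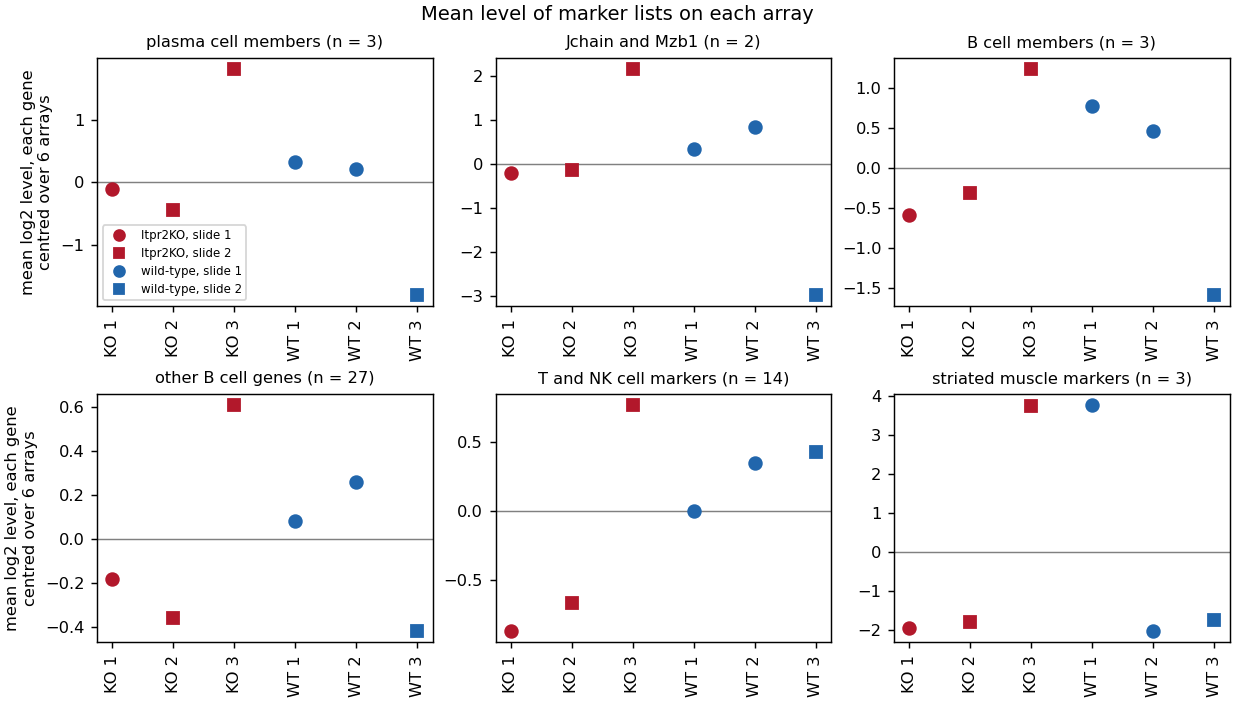
Mean of each gene list in each mouse after centring every gene on its mean over the 6 mice (log2), knockout mice first, each panel on its own scale. WT 3 is lowest for the 3 fitted plasma cell members at -1.81, for Jchain and Mzb1 alone at -2.98 and for the B cell members at -1.58, while its T and NK cell markers stand at 0.42.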

How the data were processed

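Per the labels' protocols, total RNA of frozen liver was labelled with Cy3 and put on 1-colour Agilent arrays. The deposited scanner tables hold background-subtracted intensity values from Agilent Feature Extraction. The file headers name version 11.5.1.1 and the submitters' processing notes 10.7.3.1. The authors also deposited a log2 matrix, used only as a check. Its columns for KO 2 and KO 3 matched the scanner arrays of KO 3 and KO 2, both knockout, and scanner files decide the names here.

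Control spots and 818 outlier spots were left out, the spots of a probe averaged, and each array scaled to its 75th percentile. Of 39429 probes 28330 were given 1 symbol, 0 several and 11099 none, through accessions in a RefSeq table of GRCm38.p6. Probes well above background on all 3 arrays of a genotype, 22297 in all, entered, with the brightest per gene, which gave 17991 genes. Genotypes were compared with limma 3.58.1 in R 4.3.3 (lmFit, eBayes, Benjamini-Hochberg over all genes), tested on simulated data, and single members also by exact two-sided permutation. Saturated spots numbered 0, and precision is limited by having 6 arrays. The same mice carry every value, and the labels call them independent, so spread is between mice plus handling.

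The members and lists were chosen with earlier results of these data known. Besides the members, the text names genes called in a list or else the 3 with the smallest p, a fixed set of B and plasma cell regulators, and the 5 genes most like each members' mean. Of the genes this rule takes, 1 is not reported here. Replicate numbers were not taken to pair mice. Deviations from the group means correlated at -0.20, 0.047 and -0.26 between same-numbered mice, and at -0.15 to 0.30 between the others. Deviations in a group of 3 sum to 0, so these values cannot exclude a link between same-numbered mice. Alternatives were normexp correction, other scaling and filters, slide or replicate as a block, each slide alone, each array left out and, added later, dim signals at the background limit. Normexp was run on the median signal for want of a mean signal column.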

Additional observations from a re-analysis of the deposited data

How the results depend on the processing

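No member passed the adjusted threshold under any of the alternatives run, where the lowest limma adjusted p was 0.139, for Cd79a and Pou2af1 under normexp correction. Normexp also moved the sizes of the changes. Cd79a went from 0.38 to 1.36 ± 0.41 (SE) and Pou2af1 from 0.64 to 1.12 ± 0.36. Derl3 went from 0.13 to 0.74 ± 0.35 and Mzb1 from 0.64 to 0.92 ± 0.48. Jchain fell from 1.77 to 1.11 ± 0.97 and Cd79b from 0.32 to 0.27 ± 0.56. The median over all genes went from 0.022 to 0.094. The call of 1 gene over all genes, Mansc4, which is no member, became 0 under normexp (5946 genes at an unadjusted p under 0.05), with only probes above background on all 6 arrays (1022), with the replicate block (1157), without KO 3 and WT 1 (1232) and with dim signals at the background limit (1111). It ranged from 0 to 1 when single arrays were left out. Signs of members did change. Within slide 1 Jchain was -0.80, Mzb1 -0.77, Pou2af1 -0.62, Cd79a -1.02 and Cd79b -1.07, with medians of -0.77 for plasma cell and -1.07 for B cell members. Within slide 2 Derl3 was -0.47 and Ms4a1 1.93, with medians of 2.66 and 1.95. With the slide as a block Derl3 was -0.0085 and Ms4a1 0.21, Ms4a1 was 0.44 under normexp, and Derl3 was -0.25 without KO 3 and WT 1. The cause of these changes was not tested. With single arrays left out the change ranged from 0.28 to 2.65 for Jchain, -0.24 to 1.20 for Mzb1, -0.42 to 0.69 for Derl3, -0.027 to 1.00 for Pou2af1, -0.40 to 0.88 for Cd79a, -0.31 to 0.73 for Cd79b and -0.80 to 0.42 for Ms4a1. The medians ranged from -0.042 to 1.20 for plasma cell and from -0.40 to 0.73 for B cell members. Replicate numbers were not taken to pair the mice, and the replicate block left the plasma cell median at 0.64 and the B cell median at 0.32. For Derl3 that block left the change at 0.13, with an SE of 0.22 in place of 0.64. Limits are 3 mice a genotype, 1 probe a member, no cell counts, and Cd79a and Tnfrsf17 near background on 1 or more arrays.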

Other observations

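Genes outside all lists whose levels ran most like the members were sought among 16904 by Pearson correlation over the 6 arrays, which all genes share, and are given as a description. Closest to the mean of the plasma cell members among named genes were Adamtsl1, a secreted matrix protein, at r = 0.987, Wls, which carries Wnt proteins to the surface, at 0.982, and Gm32819 at 0.978. Without KO 3 and WT 3 these were 0.751, 0.770 and 0.659. Closest to the B cell mean was Tfeb, a regulator of lysosome genes, at r = 0.992, and 0.998 without KO 3 and WT 3. Tfeb had levels of -2.51, -2.40 and -1.83 in KO 1, KO 2 and KO 3, against -2.10, -2.17 and -3.01 in WT 1, WT 2 and WT 3. The other 2 and 4 of the closest 5 have no symbol here.

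Proliferation and germinal centre genes were measured in 6 of 10 cases, with 2 higher and 4 lower in the knockout mice, a median change of -0.21 and values of -0.40 for Mki67, -0.41 for Ccnb1 and -0.23 for Birc5. All 11 Kupffer cell markers had lower means in the knockout mice, with a median of -0.55 and 0 past the adjusted threshold. At an unadjusted p under 0.05 there were 5, among them Cd5l at -0.72, C1qa at -0.64 and Folr2 at -1.01. Of all genes 54.0% had a higher mean in the knockout mice and 6.13% an unadjusted p under 0.05. Markers of a cell type share their arrays and may share their cells, so such counts are not independent observations. The 8 measured of 9 neutrophil markers all had higher means, with a median of 0.77 and 0 past either threshold, S100a8 at 0.88, S100a9 at 0.96 and Retnlg at 0.90. Their centred mean ran from 1.95 on KO 1 to -1.96 on KO 2. The median difference was 2.54 within slide 1 and -0.40 within slide 2. T and NK cell markers had a median of -0.54, with 3 higher and 11 lower, 0 past either threshold, Cd5 at -1.32, Cd8b1 at -1.30 and Lck at -0.87. Plasmacytoid dendritic cell markers had 1 of 6 higher and a median of -0.26, with Siglech at 0.17, Bst2 at -0.37 and Irf7 at -0.86. Lymphoid stroma had 2 of 3 measured markers higher, with a median of 0.17 that is the value of Clu. Levels of Clu, 7.38 to 7.76, lay in the range of the hepatocyte marker Cyp2e1, 7.19 to 7.96. Which cells Clu reports here was not tested. Hepatocyte markers had 9 of 10 higher, a median of 0.27, 0 past the adjusted threshold and 1 at an unadjusted p under 0.05, Cps1 at 0.49, beside Apoa1 at 0.50 and Tat at 0.32. Striated muscle markers had a median of 0.21, with Acta1 at 0.24, Tnni2 at -0.44 and Mylpf at 0.21.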
